A study of Mus musculus with 4 samples.

Results

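Hox genes encode homeodomain transcription factors that give cells their address along the body axes, and 37 of them are described here, measured with 49 probes on 58 spots out of 27745 gene names, 41174 probes and 43379 spots in all. The members were found among the probes, control spots aside, as those whose gene name in the array annotation is Hox, a cluster letter from a to d and a number. They comprise 10 genes of HoxA, 10 of HoxB, 8 of HoxC and 9 of HoxD, and 12 of the 37 have more than 1 probe. Hoxc11 carries no probe under that name.

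In mammals Hox genes lie in 4 clusters on different chromosomes, and genes at the same relative place in different clusters are paralogues with the same number. Within a cluster, low numbers lie at one end and act in the anterior embryo (hindbrain and neck), while high numbers lie at the other and act in the trunk, tail, limbs and genital region. The pattern is set in the embryo, among others by retinoic acid, Wnt and FGF signals and Cdx factors, and is then held by Polycomb and Trithorax chromatin complexes. Fibroblasts taken into culture are known to keep the Hox combination of the body region they came from.

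The cells were mouse embryonic fibroblasts of the C57BL/6J strain, either Lats2-/- (KO) or Lats2+/+ (WT), where Lats2 is a kinase of the Hippo pathway that answers to cell crowding. Each genotype was grown at low density, subconfluent for 48 h, and at high density, crowded for 3 to 5 days, and the RNA of both densities was hybridised together on 2-colour arrays, with the dyes exchanged on the other array of the genotype. The 4 arrays therefore gave 8 channels. The labels call the other array of a genotype a dye swap and do not say whether it took the same RNA or a separate culture, so the pair was counted as 1 replicate, and ± gives the spread between its arrays, which may be that of labelling and hybridisation alone. The labels do not give how many embryos a culture came from or which part of the embryo was used, and genotype cannot be told apart from embryo, culture, array and scan. Levels below are log2 normalised intensities, which may be compared between channels for 1 probe but not between probes, and in bulk RNA fewer cells that use a gene and less RNA in each cell cannot be told apart. A probe was called well above background as flagged by the scanner software, a gene stood by its brightest probe, and higher or lower means a mean difference of at least 2-fold (1 on the log2 scale) in the mean of the arrays, with neither array, or neither dye pair, on the opposite side.

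The genotype labels were checked with Lats2 itself. Of its 4 probes, 3 read higher in the channels labelled KO, by 1.19 to 1.39 on the log2 scale at low density and by 0.91 to 1.49 at high density, and the other probe was at -0.63 and -1.26. The labels and methods used here do not say which part of Lats2 the mouse allele lacks, so KO and WT below are the labels of the arrays, and every direction between them rests on those labels. Between 52.8% and 67.7% of spots were well above background in a channel, with both channels of KO array 1 (62.6% and 67.7%) above the other 6 (52.8% to 56.2%). Fibroblast markers were well above background in every condition for 11 or 12 of 12 genes, with a summed intensity of 419200 and 688400 at high density in WT and KO and of 315100 and 251100 at low density. The sums below hold the floor that each probe reads without detected signal (about 6 on the log2 scale), and lists are not set against each other by them. They were 567 to 965 over 6 macrophage and blood markers, 378 to 428 over 6 endothelial, 345 to 432 over 5 epithelial and 254 to 262 over 4 muscle markers, and Ptprc, Pecam1, Cdh5, Cdh1 and Myog were not well above background in any channel. Other markers of these lists were: Cd14, Cd68 and Krt14 in all 8 channels, Csf1r in 6, at up to 7.81 on KO array 2, the endothelial gene Vwf in 3 KO channels (6.44 to 6.57), Kdr and Krt18 in both WT channels at low density (6.57 to 7.03), and Tek, Aif1 and Myod1 in 1 each. Of the 3 macrophage and blood markers compared, 1 was lower in KO and none higher at each density. The lower one was Cd14, a receptor of macrophages (-1.80 ± 0.30 at low and -1.59 ± 0.19 at high density). The median of the 3 was -0.10 at low and -0.38 at high density. The part of macrophages in the results below was not tested. The 6 neural and neural crest markers summed to 22870 and 11210 in WT and to 9963 and 18810 in KO, at low and high density, through Tubb3 and Ncam1. Of the genes that tell the sex of an embryo, Xist was well above background in all 8 channels and the 4 Y-linked genes measured in none.

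In the cells labelled WT 19 of the 37 Hox genes were detected, that is, well above background in both channels of a density, and in those labelled KO 11 were. All 11 genes detected in KO were also detected in WT. The other 8, namely Hoxa2, Hoxa4, Hoxa5, Hoxa9, Hoxa10, Hoxd4, Hoxd8 and Hoxd9, were detected in WT alone, which is 42.1% of the Hox genes detected in WT against 4.79% of all genes detected in WT. No Hox gene was detected in KO alone, beside 1275 of the 15441 genes of the whole array detected in KO. Of the 8, 3 were detected in KO on a single array: Hoxa9 was well above background on KO array 1 at both densities and Hoxd4 and Hoxd9 on that array at high density, and with KO array 2 left out the count fell to 5.

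The clusters differed in which members were detected. By the brightest probe of each gene HoxB was read as 1 unbroken block, Hoxb2 to Hoxb9, in all 8 channels, with Hoxb1 and Hoxb13 in none. A dimmer Hoxb8 probe read 5.84 to 6.20 and was well above background in 1 channel. Of 10 HoxA genes 7 were detected in WT, namely Hoxa2, Hoxa3, Hoxa4, Hoxa5, Hoxa7, Hoxa9 and Hoxa10, but Hoxa3 and Hoxa7 alone of these in KO. HoxD was detected at Hoxd4, Hoxd8 and Hoxd9 in WT and at none of its 9 genes in KO. HoxC was barely detected in either genotype, since Hoxc4 alone of its 8 genes passed, at 6.96 to 7.13 in all 8 channels.

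**Figure D1:**
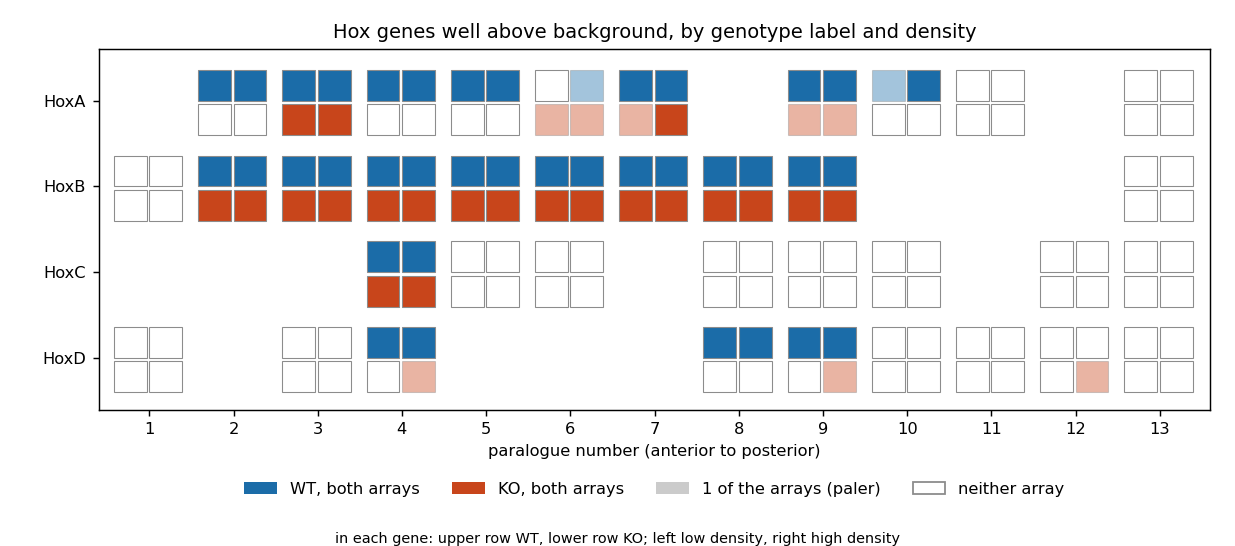
Detection of the 37 Hox genes, one block of 4 squares for each gene, by cluster (rows) and paralogue number (columns). In each block the upper squares are WT and the lower KO, the left squares low and the right high density; full colour marks both arrays well above background, pale colour 1 of them and white neither, so that the lower squares of HoxA and HoxD are mostly white or pale while those from Hoxb2 to Hoxb9 are full.

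By position, 8 of 11 anterior genes (paralogues 1 to 4), 7 of 11 central genes (5 to 8) and 4 of 15 posterior genes (9 to 13) were detected in WT. The same counts in KO were 5, 5 and 1. The most posterior members detected were Hoxa10 in WT and Hoxb9 in KO, and 16 genes were not well above background in any channel: Hoxa11, Hoxa13, Hoxb1, Hoxb13, Hoxc5, Hoxc6, Hoxc8, Hoxc9, Hoxc10, Hoxc12, Hoxc13, Hoxd1, Hoxd3, Hoxd10, Hoxd11 and Hoxd13. The 2 remaining genes were seen in single arrays, Hoxa6 at 6.20 to 6.48 and Hoxd12 at 5.92 to 6.18, close to the lowest signals that were still well above background (5.74 to 6.32 in the 8 channels).

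The sequence in front of the start site is shown for members that were lower together in KO, Hoxa2, Hoxa5, Hoxa7 and Hoxd8, and for Hoxb4, a member detected in all 8 channels whose difference did not pass the size rule. Each is the 250 bases before the RefSeq start on build GRCm38.p6, written 5′ to 3′ on the strand of the gene, with each CpG in capitals, since CpG-rich promoters are the usual landing place of Polycomb complexes at Hox clusters.
Hoxa2 (chr6:52164832-52165081, minus strand): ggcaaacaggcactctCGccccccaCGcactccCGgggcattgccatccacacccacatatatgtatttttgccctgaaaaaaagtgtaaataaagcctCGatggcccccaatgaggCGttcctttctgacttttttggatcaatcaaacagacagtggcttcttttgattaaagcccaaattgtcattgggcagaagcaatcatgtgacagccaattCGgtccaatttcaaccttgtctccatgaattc
Hoxa5 (chr6:52204588-52204837, minus strand): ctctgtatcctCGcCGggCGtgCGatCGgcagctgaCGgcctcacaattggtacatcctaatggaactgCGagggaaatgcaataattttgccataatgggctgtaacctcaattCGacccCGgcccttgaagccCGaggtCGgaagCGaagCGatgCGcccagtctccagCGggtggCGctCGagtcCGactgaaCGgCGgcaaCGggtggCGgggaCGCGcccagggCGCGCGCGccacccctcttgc
Hoxa7 (chr6:52218574-52218823, minus strand): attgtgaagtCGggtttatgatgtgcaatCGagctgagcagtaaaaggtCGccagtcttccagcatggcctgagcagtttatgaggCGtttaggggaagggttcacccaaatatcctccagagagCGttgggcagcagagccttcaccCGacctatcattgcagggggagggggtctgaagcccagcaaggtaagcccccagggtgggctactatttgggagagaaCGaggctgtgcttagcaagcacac
Hoxd8 (chr2:74704365-74704614, plus strand): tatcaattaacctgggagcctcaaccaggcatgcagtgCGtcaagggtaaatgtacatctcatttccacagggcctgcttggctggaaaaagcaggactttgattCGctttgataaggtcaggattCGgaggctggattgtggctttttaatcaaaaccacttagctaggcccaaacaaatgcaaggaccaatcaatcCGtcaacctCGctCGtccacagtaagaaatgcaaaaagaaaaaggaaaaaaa
Hoxb4 (chr11:96318017-96318266, plus strand): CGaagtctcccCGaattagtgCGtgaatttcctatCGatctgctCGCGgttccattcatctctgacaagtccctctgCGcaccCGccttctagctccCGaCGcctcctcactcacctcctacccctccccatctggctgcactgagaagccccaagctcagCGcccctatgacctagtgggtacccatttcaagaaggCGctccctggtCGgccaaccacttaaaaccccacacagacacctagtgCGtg
The 5 windows range from CpG-rich to CpG-poor: Hoxa5 holds 28 CpGs, Hoxb4 14, Hoxa7 7 and Hoxa2 and Hoxd8 6 each, against a median of 6 over all 32851 promoters of that length and of 12.5 over the 24 promoters of 22 member genes in the table. The 4 members lower in KO thus differed among themselves in CpG content. The TEAD motif GGAATG, searched on both strands because TEAD factors act below Lats2, was found in 1 of the 24 Hox promoters (Hoxa9) and in 12.6% of all promoters. The nuclear receptor motif AGGTCA, which retinoic acid receptors bind as a pair, was found in 6 Hox promoters, among them Hoxb4, Hoxc4, Hoxd4 and Hoxd8, and in 14.0% of all promoters. Hoxa4, Hoxb2, Hoxb5, Hoxb7 and Hoxb9 are not in the promoter table.

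The genotype labels were compared at each density, KO over WT, within each dye. At low density 18 Hox genes could be compared, and 2 were higher and 6 lower in KO, while 7.32% of all genes compared were higher and 8.35% lower. At high density 19 could be compared, and 2 were higher and 7 lower, against 6.74% and 7.77% of all genes. The 6 genes lower at low density, Hoxa2, Hoxa4, Hoxa5, Hoxa7, Hoxb2 and Hoxd8, were lower at high density too, where Hoxd4 joined them, and Hoxb7 and Hoxb9 were the higher genes at both densities. At each density 8 of the genes compared passed the filter through the WT side alone, so that those 8 could differ in 1 direction only. All of them were HoxA or HoxD genes, so these clusters cannot be set against HoxB by the direction of their counts. With genes required to be well above background in every channel 1 was lower at low density (Hoxb2) and 2 at high density (Hoxa7 with it). The median over the Hox genes compared was -0.72 at low and -0.80 at high density, against 0.03 over all genes at both, and -0.69 and -0.63 where a gene not detected in KO was set at its bound. Over genes well above background in every channel the median turned to 0.02 at low and 0.23 at high density, so the negative medians rest on the genes that passed through the WT side. Without scaling between arrays, which put the median of all genes at 0.27 at both densities and moved the share of higher genes among all called from 46.7% to 69.1% at low and from 46.4% to 66.6% at high density, 3 Hox genes were higher and 6 lower at low density and 3 higher and 6 lower at high density.

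HoxA carried most of the lower genes, 4 of 6 compared at low density and 4 of 7 at high density. Of its genes Hoxa2, Hoxa4, Hoxa5 and Hoxa9 passed through the WT side alone in both comparisons. Hoxa7 did so for low density only and Hoxa10 for high density only. The filter let these genes be lower but not higher. Hoxa3, and Hoxa7 when crowded, could differ either way, and neither was higher. Hoxa7, a member of the central group that acts in the thoracic skeleton (probe at chr6:52145210-52145269 on build mm8, the build of the array annotation), read 10.81 and 10.80 in WT at low density, 11.76 and 12.02 in WT at high density, 6.30 and 6.24 in KO at low density and 6.34 and 6.44 in KO at high density. All WT channels lay above all KO channels, and the KO channels lay near the limit of detection, 1 of them below it. The fitted difference was -4.54 ± 0.04 (SD of the 2 dye pairs) at low and -5.50 ± 0.12 at high density, or 23.2-fold and 45.3-fold, the former with 1 of the KO channels below detection.

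Hoxa5, which patterns the neck and upper thorax and takes part in lung development (chr6:52131633-52131692), read 8.77 and 9.02 in WT at low and 9.24 and 9.01 at high density, and 5.87 to 5.91 in the 4 KO channels. Hoxa2, the gene that gives the second branchial arch its identity (chr6:52092179-52092238), read 8.49 and 8.60 in WT at low, 9.69 and 9.61 at high density, and 5.87 to 6.07 in KO. For both genes every KO channel was not well above background, so the difference is a bound. Hoxa5 was at least 7.32-fold lower in KO at low and at least 8.52-fold lower at high density, and Hoxa2 at least 5.72-fold and at least 12.3-fold lower. Bounds of this kind set the mean of the brighter group against the lowest signal of each dim channel that was still well above background, or the dim probe itself where that was higher.

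Hoxa4, an anterior member of the neck region (chr6:52119380-52119439), read 8.60 and 8.88 in WT at low and 8.23 and 8.28 at high density, against 5.98 to 6.09 in KO. It was at least 6.28-fold lower in KO at low and at least 4.40-fold lower at high density. A dimmer Hoxa4 probe (chr6:52120179-52120238) had the same order, 6.48 and 6.57 in WT and 5.89 and 5.93 in KO at low density, a fall of at least 1.41-fold.

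The neighbour of Hoxa4 within the cluster, Hoxa3, had probes that disagreed. Its brightest probe (chr6:52099994-52100053) read 6.86 to 6.98 in WT and 6.89 to 7.47 in KO, a difference of 0.26 ± 0.32 at low and 0.31 ± 0.26 at high density. The other probe, within 1 kb of it (chr6:52099328-52099387), read 7.34 to 7.72 in WT and 5.78 to 6.25 in KO, a difference of -1.55 ± 0.55 at low density, with 1 KO channel below detection, and at least 2.61-fold at high density, so that Hoxa3 is a gene whose direction depends on the probe. Of the posterior members, Hoxa9 was at -0.68 ± 0.18 at low and -0.53 ± 0.04 at high density, each with 1 KO channel below detection. Hoxa10 was at least 1.55-fold lower in KO at high density, and as a bound this does not show whether it reached 2-fold.

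Of the 8 HoxB genes compared 1 was lower and 2 were higher in KO at each density. Hoxb2, which patterns the hindbrain and the facial nerve (chr11:96169898-96169957), read 11.53 and 11.44 in WT at low, 10.99 and 10.95 in WT at high, 8.96 and 8.99 in KO at low and 8.84 and 8.94 in KO at high density. It was lower in KO, at -2.51 ± 0.08 for low and -2.08 ± 0.09 for high density, or 5.70-fold and 4.22-fold. Another probe filed under Hoxb2 (chr11:96166636-96166695) is annotated to the opposite strand of the cluster, read 7.07 to 7.30 in WT and in KO at low density and 7.98 and 8.0 in KO at high density, and was not lower in KO.

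Hoxb7, a central member (chr11:96105987-96106046), went the other way. It read 7.26 and 7.31 in WT at low, 7.42 and 7.36 in WT at high, 10.31 and 10.36 in KO at low and 10.74 and 10.71 in KO at high density. The difference was 3.05 ± 0.01 at low and 3.34 ± 0.02 at high density, 8.30-fold and 10.1-fold, with every channel of both groups well above background.

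Hoxb9, which patterns the ribs (chr11:96091841-96091900), read 10.45 in both WT channels at low, 8.70 and 8.74 in WT at high, 12.54 and 12.42 in KO at low and 12.76 and 12.31 in KO at high density. It was 4.09-fold higher in KO at low density (2.03 ± 0.08) and 14.1-fold higher at high density (3.82 ± 0.35). Its other probe (chr11:96092524-96092583) gave 1.07 ± 0.03 and 2.58 ± 0.05, so both probes passed at both densities.

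None of the other HoxB genes passed the size rule, though some came near it. Hoxb3 had probes that disagreed. The brightest (chr11:96163778-96163837) read 9.54 and 9.64 in WT at low, 10.40 and 10.12 in WT at high, 8.64 and 8.81 in KO at low and 9.38 and 9.17 in KO at high density, a difference of -0.86 ± 0.05 at low and of -0.98 ± 0.05, just outside the threshold, at high density. The other (chr11:96161890-96161949), also well above background in all 8 channels, read 7.16 to 7.26 in WT and 7.20 to 7.57 in KO, a difference of 0.04 ± 0.14 and 0.36 ± 0.03, so the direction of Hoxb3 depends on the probe. Hoxb4 was at -0.37 ± 0.18 and 0.24 ± 0.22, Hoxb5 at -0.26 ± 0.06 and 0.81 ± 0.09 and Hoxb6 at 0.08 ± 0.07 and -0.06 ± 0.19, at low and high density. Hoxb8, which lies between Hoxb7 and Hoxb9, was at 0.98 ± 0.20 and 0.23 ± 0.31 and passed in neither, though it was the member nearest to the threshold at low density. Among the HoxB genes ordered by number the low density difference was lowest at Hoxb2 and highest at Hoxb7, as a description over 8 genes.

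**Figure D2:**
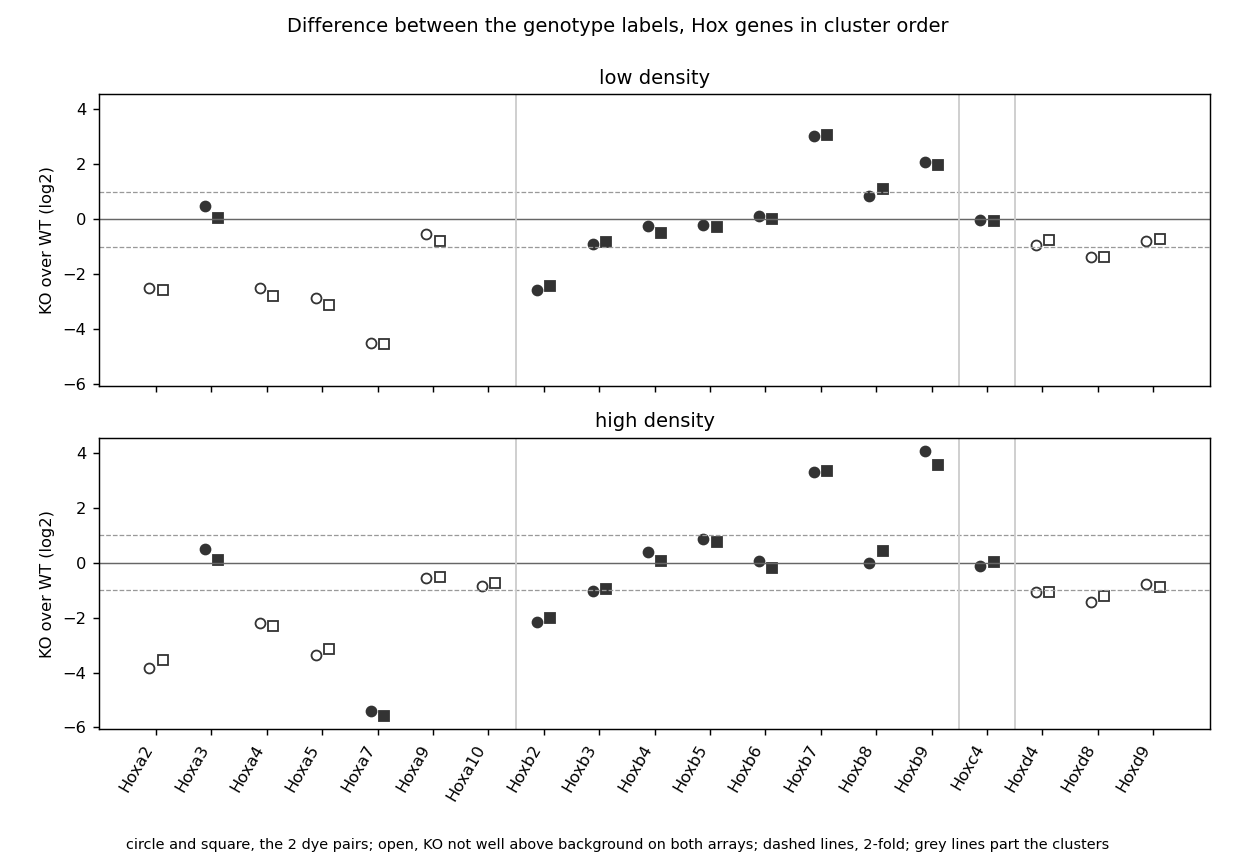
Difference between the genotype labels (KO over WT, log2 of normalised intensity) for each measured Hox gene in cluster order, at low density (upper panel) and high density (lower panel). Genes that passed the filter through the WT side alone, all of them in HoxA and HoxD, could lie on the lower side only. Circle and square are the 2 dye pairs, open symbols mark genes not well above background on both KO arrays, and dashed lines stand at 2-fold; HoxA and HoxD genes lie mostly below zero, with Hoxa7 at -4.54 and -5.50, while HoxB runs from Hoxb2 below zero to Hoxb7 and Hoxb9 above it.

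HoxD and HoxC had few members to compare, and every HoxD gene compared passed the filter through the WT side alone. Hoxd8, a central gene of its cluster (chr2:74507803-74507862), read 7.37 to 7.47 in the 4 WT channels and 6.01 to 6.17 in the 4 KO channels, and was at least 2.55-fold lower in KO at low and at least 2.46-fold lower at high density. Hoxd4, a neck vertebra gene (chr2:74529648-74529707), read 6.94 and 6.78 in WT at low, 7.24 and 7.17 at high density, and 6.00 to 6.19 in KO. Hoxd4 was at least 1.76-fold lower in KO at low density, and at -1.05, just inside the threshold, at high density with 1 KO channel below detection. Hoxd9 was at least 1.61-fold lower at low density and at -0.82 ± 0.08 at high density, again with 1 KO channel below detection. The bounds of both genes do not show whether they reached 2-fold at low density. Hoxc4 (chr15:102864144-102864186) was at -0.04 ± 0.02 and -0.05 ± 0.10, and its 8 channels, given above, overlapped.

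**Figure D3:**
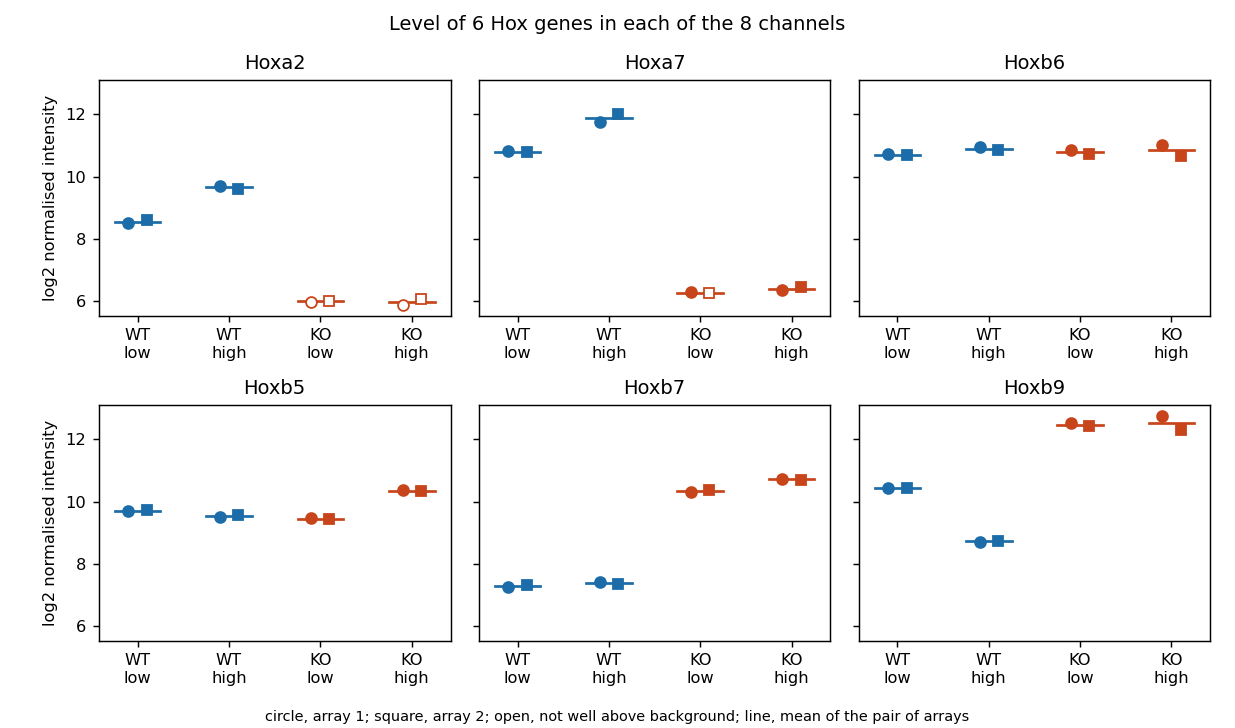
Level (log2 normalised intensity) of 6 Hox genes in the 8 channels, by genotype label and density; circle array 1, square array 2, line the mean of the pair, open symbols not well above background. Hoxa2 and Hoxa7 are high in WT and near the limit of detection in KO, Hoxb6 is level at 10.65 to 11.03, and Hoxb7 and Hoxb9 are higher in KO.

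The differences came out at other sizes with other signals and background corrections, and the cause was not tested. With the processed signals of the scanner software, which subtract background without an offset, the fitted differences of Hoxa2, Hoxa4, Hoxa5 and Hoxd8 ran from -3.53 (Hoxd8, high density) to -8.01 (Hoxa2, high density). Their KO channels were not well above background, so these values give no size, and the filter that admits a gene through WT alone fixes their side. Hoxa7 at low density (-7.12) and Hoxd4 at high density (-3.10) had 1 such KO channel. With a normexp offset of 10 Hoxd8 was at -2.38 and -2.15, Hoxd4 at -1.77 at high density and Hoxa4 at -3.44 at high density, on the same KO channels. Averaged over both of its probes, Hoxa4 was at -1.64 at low density. The average of Hoxb2 with the opposite-strand probe (-1.33 at low and -0.60 at high density, short of the threshold) joins the 2 strands and was not read as a value of Hoxb2.

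Crowding was compared within each array, high over low density. In WT 19 Hox genes could be compared and 2 were higher at high density, Hoxa2 and Hoxa7, against 9.41% of all genes, and 1 was lower, Hoxb9, against 6.09%. Of the 11 compared in KO none passed the size rule, while 7.14% of all genes were higher and 3.87% lower. The median over the Hox genes compared was 0.11 in WT and 0.12 in KO, beside 0.06 over all genes in each. The 16 other genes compared in WT did not pass either. With median centring in place of loess the share of higher genes among all called went from 60.7% to 47.1% in WT and from 64.8% to 42.8% in KO, and no Hox gene was higher in WT.

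Hoxa2 had a WT density effect of 1.20 on array 1 and 1.02 on array 2 (mean 1.11), and Hoxa7 of 0.95 and 1.22 (mean 1.09, just inside the threshold). With median centring they were at 0.98 and 0.86, and with array 2 of WT left out Hoxa7 was at 0.95. Hoxa2 could not be compared in KO, where it was not detected, and Hoxa7 was at 0.12 ± 0.11 there on signals near the limit of detection.

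Hoxb9 had the widest density effect of the Hox genes. It was lower at high density in WT, at -1.76 and -1.71 on the 2 arrays, a 3.32-fold fall in the mean, while in KO it gave 0.22 and -0.11. The levels given above show the same: the WT channels fell from 10.45 to 8.70 and 8.74, and the KO channels stayed between 12.31 and 12.76. The other Hoxb9 probe was at -0.88 ± 0.24 in WT and 0.63 ± 0.17 in KO, on the same side in WT but short of the threshold.

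Hoxb3, just outside the threshold in WT, was at 0.86 and 0.48 in WT and at 0.74 and 0.37 in KO, the same sign on the 4 arrays. Its other probe was at 0.02 and -0.05 in WT and at 0.27 and 0.35 in KO, so the WT effect was not seen with it.

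**Figure D4:**
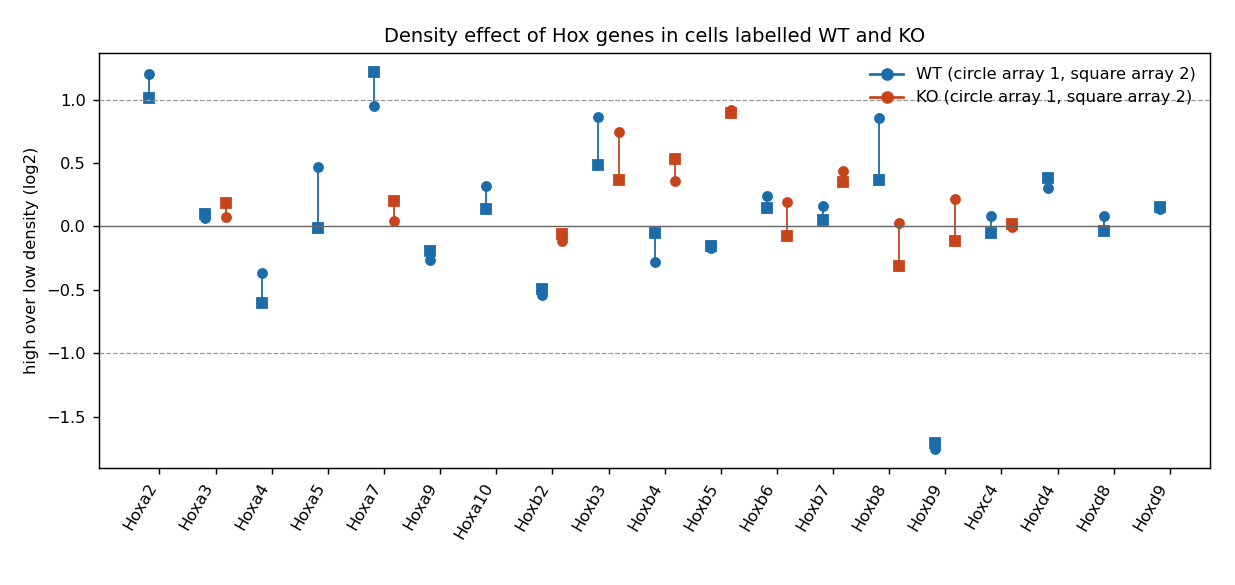
Density effect (high over low density, log2) of each measured Hox gene in cells labelled WT (blue) and KO (red), array 1 as a circle and array 2 as a square joined by a line; dashed lines stand at 2-fold. Hoxb9 lies at -1.76 and -1.71 in WT and around zero in KO, and Hoxb5 lies near zero in WT and at 0.92 and 0.90 in KO.

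The difference between the density effects, KO minus WT, could be formed for 11 Hox genes, of which 2 were higher and none lower, while 4.56% of all genes were higher and 4.98% lower. The 2 were Hoxb9, at 1.79 ± 0.27, and Hoxb5, at 1.07 ± 0.03. Hoxb5, which takes part in the positioning of the shoulder girdle (chr11:96121906-96121965), read 9.69 and 9.74 in WT at low, 9.52 and 9.58 in WT at high, 9.47 and 9.44 in KO at low and 10.38 and 10.33 in KO at high density. The KO channels at high density stood above the other 6, while those 6 lay between 9.44 and 9.74. The opposite-strand probe filed under Hoxb2 had nearly the same shape, with a density effect of -0.12 ± 0.07 in WT and of 0.91 on both arrays in KO. Hoxa7, at -0.96 ± 0.08, was just outside the threshold.

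A density effect shared by both genotypes was tested with limma on 1 mean for each genotype, so that the spread was the difference between WT and KO. None of the 15 Hox probes (11 genes) tested had a Benjamini-Hochberg adjusted p under 0.05, as was the case for all 21546 probes tested (0% called, lowest adjusted p 0.0667 with limma). Without adjustment 1 of the 11 Hox genes had a p under 0.05, beside 29.7% of all probes. This was Hoxb3, at 0.61 ± 0.16 (SE, limma adjusted p = 0.115) for its brightest probe, while its other probe was at 0.15 ± 0.18 (limma adjusted p = 0.613).

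The genes around the clusters were compared in the same way. Inside HoxA the transcript 5730446D14Rik, on the opposite strand between the probes of Hoxa2 and Hoxa3 (chr6:52098691-52098750), read 7.66 and 7.59 in WT at low, 9.52 and 9.26 in WT at high, 6.16 and 6.25 in KO at low and 6.44 and 6.46 in KO at high density. It moved as its neighbour Hoxa2 did, higher with density in WT (1.76 ± 0.13) and lower in KO than in WT (-1.42 ± 0.11 at low, with 1 KO channel below detection, and -2.94 ± 0.20 at high density). Outside HoxA 2 genes could be compared, and Skap2, an adaptor protein gene 303 kb from the Hoxa2 probe on the anterior side, was lower in KO by its brightest probe (-1.39 ± 0.14 and -1.44 ± 0.08) but short of the threshold by its other one (-0.63 ± 0.07 and -0.97 ± 0.03), while Hibadh, 287 kb beyond the posterior end, was at -0.23 and -0.36. Both were chosen after their values were seen.

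Of 15 genes compared within 500 kb of HoxB, none was higher or lower at low density and 1 was higher at high density, Skap1, by 1.56 ± 0.12 at 392 kb from the cluster. Around HoxD none of 3 was called at either density. Over all genes compared 7.32% were higher and 8.35% lower at low density, and 6.74% and 7.77% at high density. Around HoxC, where the single Hox gene compared did not pass, 5 of 21 were lower and 1 higher at low density and 8 of 22 lower and 1 higher at high density, among them the integrin gene Itga5 (-2.97 ± 0.01 at low density), the phosphatase inhibitor gene Ppp1r1a (-2.15 ± 0.20), Nfe2 (at least 4.72-fold lower at high density) and the phosphodiesterase gene Pde1b (-1.84 ± 0.09).

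**Figure D5:**
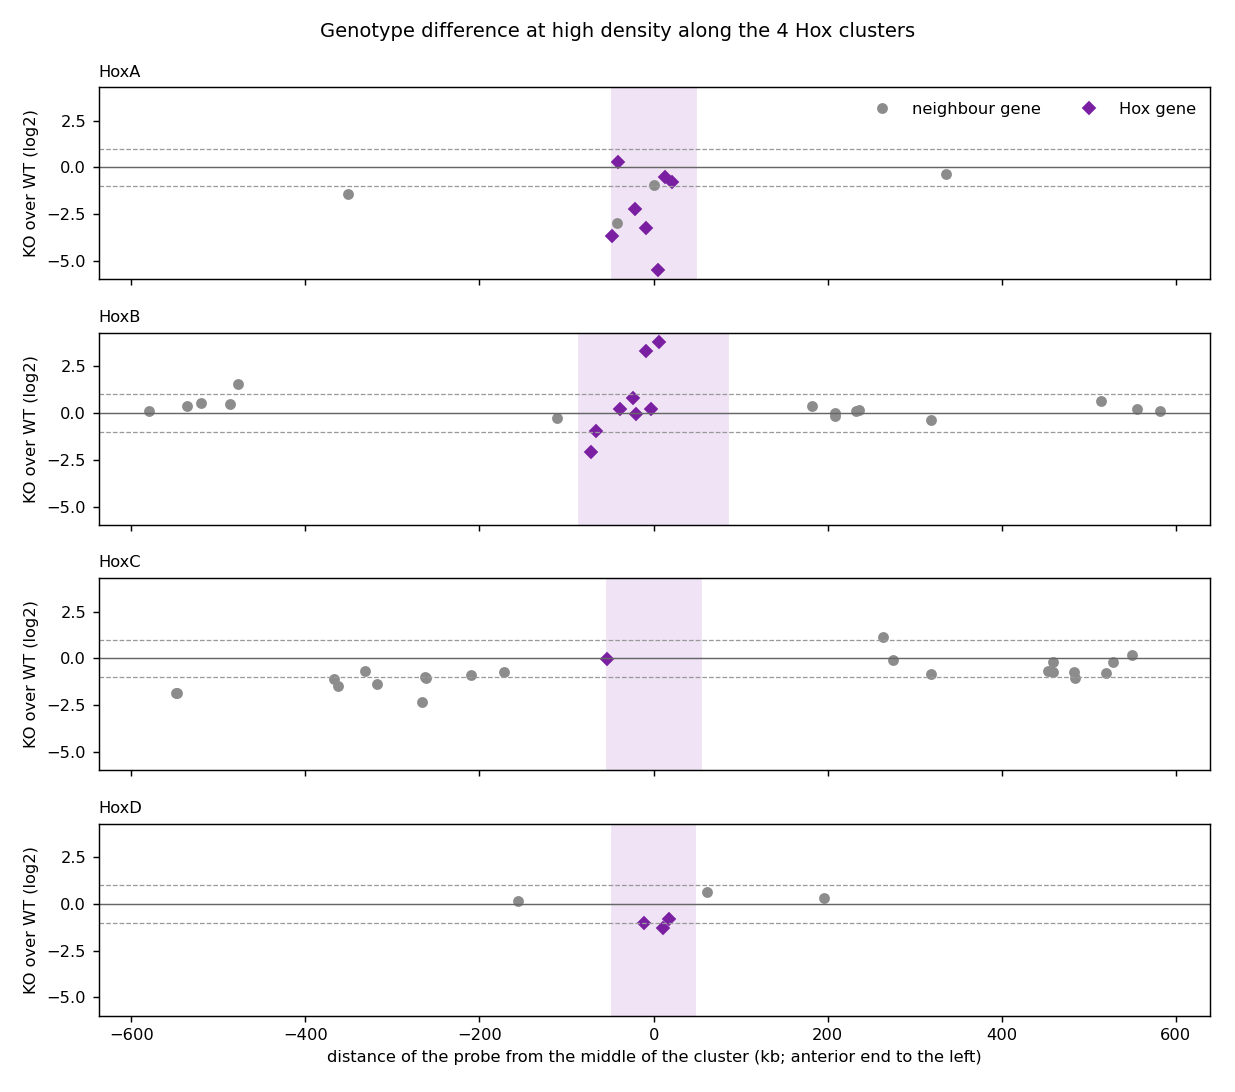
Genotype difference at high density (KO over WT, log2) of Hox genes (diamonds) and other measured genes within 500 kb (circles) against the distance of the probe from the middle of each cluster in kb, with the anterior end to the left and the cluster shaded. Within HoxB the diamonds span -2.08 to 3.82 while the circles outside lie between -0.38 and 1.56, and around HoxC the circles lie mostly below zero.

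The partners and regulators of Hox proteins were read from lists that hold no member. Beside them, 7.32% of all genes compared were higher and 8.35% lower in KO at low density, and 6.74% and 7.77% at high density. Of 6 TALE homeodomain cofactors, which bind DNA together with Hox proteins, 1 was higher in KO at low density (Pbx4, 1.27 ± 0.07), and none was called at high density. Of 30 Polycomb and Trithorax genes compared 1 was higher and 5 lower at low density, and 1 was higher and 2 lower at high density. The counts at high density were no more than the shares of all genes. The lower genes included Rbbp4 (-1.40 ± 0.08 and -1.03 ± 0.04), a histone binding subunit of several chromatin complexes, and Phc2 (-1.27 ± 0.08 and -1.18 ± 0.04) and Cbx2 (-1.39 ± 0.06 and -0.90) of Polycomb complex PRC1. Ezh2, the methyltransferase of PRC2, was at -1.02 ± 0.34 at low and -0.17 ± 0.39 at high density, and Cbx7, another PRC1 subunit, was the higher gene at high density (at least 3.09-fold), as the PRC2 accessory gene Phf1 was at low density (1.01).

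Of 11 genes of the signals that induce Hox expression 3 were higher and 2 lower in KO at low density, and 3 were higher and 1 lower at high density. The shares of all genes, for these and for the fibroblast markers below, were 7.32% higher and 8.35% lower at low density. At high density they were 6.74% and 7.77%. The 3 higher genes were Crabp1, a retinoic acid carrier (at least 41.8-fold at low density and 5.37 ± 0.03 on the log2 scale at high density), Aldh1a1, which makes retinoic acid (at least 7.04-fold, and 2.92 ± 0.16), and Cyp26a1, which breaks it down (at least 4.04-fold at low and 2.56-fold at high density). Cyp26b1, which also breaks it down, was lower (-3.24 ± 0.02 and -1.55 ± 0.14). Some fibroblast markers differed between the genotype labels as well, 3 of 11 higher and 2 lower at low density and 6 of 12 higher at high density. Among the higher ones were Pdgfra, at 4.46 ± 0.55 and 3.10 ± 0.20, and the limb and mesenchyme factor Prrx1, at 2.30 ± 0.13 and 2.19 ± 0.42. Fn1 was among the lower at low density, at -1.30 ± 0.17, and among the higher at high density, at 1.33 ± 0.66. Other probes of Rbbp4, Pbx4, Pdgfra, Prrx1 and Fn1 were on the same side, some of them short of 2-fold. The part of any of these genes, or of the make-up of the cultures, in the Hox differences was not tested.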

How the data were processed

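RNA of both densities was hybridised on 4 Agilent 2-colour whole mouse genome arrays, 2 for each genotype with dyes exchanged. The authors scanned and extracted the arrays with Agilent Feature Extraction 10.5.1.1, and the deposited scanner files hold spot and background intensity, processed signal intensity and 0 or 1 flags, with gene names and positions of the array annotation (build mm8). The deposited series matrix holds the log10 ratio of the same files, within 0.005 of it, turned to high over low density. The processed log10 ratio and signals were used as alternatives. From the deposited mean and background intensity, log2 values were made in R 4.3.3 with limma 3.58.1: normexp with an offset of 50, loess within arrays, and Aquantile between arrays for the genotype comparison, taken within each dye. Flagged spots (107 to 224 an array) were left out and spots of a probe averaged. A gene was compared where its brightest probe was well above background on both arrays of 1 side or more. With 1 replicate for each genotype and density no test was run within a contrast, and ± gives the SD of the 2 arrays or dye pairs. Over all probes measured the arrays of a contrast deviated from their mean by 0.0999 to 0.149 (SD, log2). Limma tested the shared density effect with Benjamini-Hochberg adjustment. The number of arrays limits the precision. On simulated data for each of the 4 within-genotype or within-density contrasts, all 200 probes changed by 2 on the log2 scale and passing the filter were recovered. The changed probes were drawn from bright ones, well above background in every channel, and their change lay beyond the threshold. Changes in faint genes, such as the Hox genes below detection in KO, were not simulated, so the recovery says nothing of them. Channel values were given for each Hox gene past the size rule in 1 contrast or more (10 genes) and for Hoxa3 and Hoxb3, whose probes disagreed; of other lists and neighbours, at most the 3 largest in each direction of a contrast, other names being chosen after their values were seen. The members and lists were chosen with earlier results of these data known. A Hox gene and a cofactor gene are not reported here and are left out of the counts. Promoters came from the RefSeq table of GRCm38.p6.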

Additional observations from a re-analysis of the deposited data

Results flagged for a closer look

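Hoxb5 and Hoxb4 had density effects that ran opposite ways in the genotypes on every array. Hoxb5 was at -0.17 and -0.15 on the WT arrays and at 0.92 and 0.90 on the KO arrays, which puts the difference at 1.07 on the log2 scale. Hoxb4 was at -0.28 and -0.05 on the WT arrays and at 0.35 and 0.53 on the KO arrays, a difference of 0.61, short of 2-fold. With 1 replicate for each genotype neither difference was tested.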

How the results depend on the processing

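Of the 23 results formed by the Hox values past the size rule and the shared density effect of Hoxb3, 10 passed the filter through 1 genotype alone, which fixes their sign. The other 13 kept their sign under every alternative that gave them a value, over 137 values. Among the moves of the counts with the settings were the following. With genes well above background in every channel, 1 Hox gene was lower in KO at low density and 2 at high density, in place of 6 and 7, and the median went from -0.72 to 0.02 at low and from -0.80 to 0.23 at high density; the cause is the filter itself, which drops genes not detected in KO. With median centring 0 were higher with density in WT in place of 2. At a threshold of 1.4-fold, 4 were higher and 2 lower with density in WT, 2 were higher with density in KO, 2 had a lower difference of density effects, and 10 were lower in KO at low density and 11 at high density, with 3 higher in place of 2 at both and in the difference. With the processed signals 9 were lower in KO at low density, in place of 6, and 11 at high density, in place of 7. With offset 10 the counts were 9 and 10. Both settings and median centring put 3 higher in KO at low density, Hoxb8 joining. The processed signals also put 3 higher with density in WT, again with Hoxb8. Over all genes the number lower in KO rose too. It went from 1273 to 2061 at low and from 1214 to 2010 at high density with the processed signals, and to 1656 and 1626 with offset 10. The cause was not tested. The number with a lower difference of density effects went from 0 to 1 with the processed signals and with offset 10 (Hoxb8 in both) and without the filter (Hoxa2), and the cause was not tested.

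With single arrays left out, which leaves a value with no dye exchange, the number higher with density in WT was 1 to 2 (Hoxa7 was lost without WT array 2), the number with a lower difference 0 to 1 (Hoxa7 came in without array 1 of either genotype), and the number detected in WT and not in KO 5 to 9. No Hox probe passed the shared density test under any of its alternatives, limma with trend included. No paired analysis was possible because each genotype was counted as 1 replicate and its array numbers mark dye orientation. What limits the faint members is signal over background: below it a difference is a bound.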
